A study of Mus musculus with 6 samples.

Results

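The genes described here are 35 mouse genes of antigen presentation and the interferon response, listed by symbol. The choice was made with earlier results of these data known. There are 10 genes of the MHC class I route, 5 of the MHC class II route and 20 interferon genes. All 35 were found among the 56980 gene IDs of the count table, and all 35 were among the 18558 genes with enough counts to be tested. They were measured by RNA sequencing of whole islets, the endocrine cell clusters of the pancreas, from mice 14 weeks old. The 3 control libraries came from SSBP3F/F mice, in which both copies of Ssbp3 are floxed, that is, flanked by sites that Cre recombinase cuts. The 3 knockout libraries came from SSBP3F/F; MIP-CreER littermates, which carry the same floxed alleles and, in addition, a Cre that tamoxifen switches on and that is driven by the mouse insulin promoter. Cre activity was therefore aimed at beta cells, while every islet cell type, and any leukocyte or vessel in the islet, contributed RNA. Mice with MIP-CreER but an intact Ssbp3 gene were not analysed here, and effects of the transgene and of the deletion cannot be told apart. The sources used here give neither strain, sex nor tamoxifen dosing. Nor do they say whether a library held the islets of 1 animal or of several, so p-values measure only how far these libraries spread, which can be technical in part.

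MHC class I molecules show fragments of a cell's own proteins to CD8 T cells. The immunoproteasome cuts the proteins, the TAP pump carries the peptides into the endoplasmic reticulum (ER), and tapasin helps to load them onto a heavy chain bound to B2m. Class II molecules show peptides from engulfed material to CD4 T cells and are mostly made by macrophages, dendritic cells and B cells. Interferons signal through JAK kinases and STAT factors to switch on both routes together with antiviral genes, and in islets a raised class I level and an interferon signature are known from autoimmune diabetes.

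Many interferon-induced promoters carry an interferon-stimulated response element (ISRE), bound by IRF factors, or a gamma-activated site (GAS), which serves the response to interferon gamma. The motifs were searched as the ISRE core, GAAA followed by any 2 bases and a second GAAA, and the GAS core TTCNNNGAA, on both strands, in RefSeq windows from 250 bases before to 50 bases after each gene's start (build GRCm38.p6). Windows were listed for 29 of the 35 members. Not listed were Tap2, Nlrc5, Ciita, H2-Ab1, Cd74 and Usp18. Of 33 member windows, 14 (42.4%) held the ISRE core and 7 (21.2%) the GAS core, beside 3.44% and 8.30% of all 32851 windows. In 63 windows of other interferon-stimulated genes the shares were 41.3% and 14.3%, so the ISRE share is not particular to the members. The ISRE core stood in 13 of 19 interferon genes, in 1 of 8 class I genes (B2m) and in neither of the 2 class II genes listed. Hits of the ISRE and GAS cores overlapped in Bst2 and Ifitm3. A match is a run of letters and not a measured binding site. Nor does the lack of a match show that a site is absent, since only exact cores inside these windows were searched. The 250 bases before the start are shown for 6 members whose levels are set against each other below, with ISRE and GAS cores in capitals. Gbp2 and Gbp7 belong to 1 gene family and lie on the same chromosome, as do Ifit1 and Ifit3, Isg15 holds 3 overlapping ISRE cores, and Tap1 shares its window with Psmb9.
Gbp2 (chr3:142620413-142620662, plus strand): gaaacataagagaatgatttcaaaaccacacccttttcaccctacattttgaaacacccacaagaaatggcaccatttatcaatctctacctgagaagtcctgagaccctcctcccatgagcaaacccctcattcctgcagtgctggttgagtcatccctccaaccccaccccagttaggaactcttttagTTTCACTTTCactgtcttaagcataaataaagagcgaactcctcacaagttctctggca
Gbp7 (chr3:142530086-142530335, plus strand): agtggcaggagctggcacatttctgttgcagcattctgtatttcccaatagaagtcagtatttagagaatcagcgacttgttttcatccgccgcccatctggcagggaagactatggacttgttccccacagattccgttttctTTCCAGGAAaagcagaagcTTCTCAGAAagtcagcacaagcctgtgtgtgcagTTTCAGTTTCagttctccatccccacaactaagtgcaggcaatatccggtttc
Ifit1 (chr19:34640639-34640888, plus strand): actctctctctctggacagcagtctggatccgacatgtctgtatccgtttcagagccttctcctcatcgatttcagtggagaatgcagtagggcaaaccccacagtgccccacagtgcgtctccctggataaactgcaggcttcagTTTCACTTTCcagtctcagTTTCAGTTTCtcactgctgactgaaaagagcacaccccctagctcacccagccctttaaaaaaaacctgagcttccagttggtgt
Ifit3 (chr19:34583279-34583528, plus strand): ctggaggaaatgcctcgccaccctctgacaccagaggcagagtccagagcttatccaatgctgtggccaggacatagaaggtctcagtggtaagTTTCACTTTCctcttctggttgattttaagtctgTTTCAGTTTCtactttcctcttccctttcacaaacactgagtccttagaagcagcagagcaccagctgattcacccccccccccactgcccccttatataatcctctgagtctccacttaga
Isg15 (chr4:156200819-156201068, minus strand): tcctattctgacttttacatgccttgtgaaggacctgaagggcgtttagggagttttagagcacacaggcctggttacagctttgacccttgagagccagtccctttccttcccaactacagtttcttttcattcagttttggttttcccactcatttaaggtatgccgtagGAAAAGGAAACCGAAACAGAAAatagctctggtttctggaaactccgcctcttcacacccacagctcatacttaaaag
Tap1 (chr17:34187306-34187555, plus strand): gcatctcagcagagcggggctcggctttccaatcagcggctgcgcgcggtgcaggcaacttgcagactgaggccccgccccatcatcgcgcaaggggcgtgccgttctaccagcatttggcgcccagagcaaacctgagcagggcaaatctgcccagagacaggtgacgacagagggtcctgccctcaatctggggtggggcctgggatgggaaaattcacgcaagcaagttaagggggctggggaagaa
The ISRE core began 59 bases before the start in Gbp2 and 53 bases before it in Gbp7. It began 104 and 85 bases before the start in Ifit1, and 156 and 122 bases before it in Ifit3. Gbp7 also had GAS cores at 106 and 87 bases. The windows of Tap1 and Psmb9 lie head to head on opposite strands and overlap by 275 bases, and neither motif was found in them.

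The libraries held 14907641 to 225428920 counts. The shallow ones were control 1 (17587055) and knockout 1 (14907641). The floor of detection, 3 counts, equalled 0.0135 to 0.194 CPM depending on the library and covers counting error only. CPM is the count divided by the library's total in units of 1e+06 counts, scaled by TMM factors. The targeted gene, Ssbp3, measured 65.8, 81.3 and 74.2 CPM in the controls and 52.3, 58.1 and 57.1 CPM in the knockouts. The groups did not overlap, but the gene was not called by edgeR (log2 fold change -0.40, SE 0.117, edgeR adjusted p = 0.0581, 0.0243 to 0.283 over 15 alternatives). It was called lower in 5 of the 15, DESeq2 (0.0368) and limma-voom (0.0464) among them. The counts cover the whole gene in all cell types. Ins2, a beta-cell hormone gene, lay between 87076 and 157818 CPM in the 6 libraries, the level of a main islet hormone. A gene is called where edgeR's quasi-likelihood test gave a Benjamini-Hochberg adjusted p under 0.05 over all genes tested. Fold changes are knockout over control. In bulk RNA, fewer cells of a type and less RNA per cell cannot be told apart.

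Of the 35 members, 3 rose in knockout islets and 0 fell (3.35% of all genes were called lower): the peptide pump gene Tap2, the GTPase gene Gbp2 and the RNA sensor gene Ifih1. That is a share of 8.57%, beside 7.07% of all genes tested, and 3.72% of all genes were called higher. DESeq2 called 6 of the 35 (17.1%, beside 11.3% of all genes tested) and limma-voom 3 (8.57%, beside 9.30%). An unadjusted p under 0.05 was reached by 9 members, all higher, beside 21.6% of all genes in either direction and 10.9% in the higher direction. The 2 groups did not overlap for 8 members (22.9%), all of them higher in knockout, beside 28.0% of all genes, 14.0% in the higher direction. The members' median log2 fold change was 0.13, beside -0.00163 for all genes tested. By class the medians were 0.18 for class I, -0.01 for class II and 0.23 for interferon genes. Leaving out control 1, knockout 1 or both shallow libraries left 0 members called by edgeR, beside 3.40%, 3.12% and 0.652% of all genes tested. In these fits 8, 7 and 5 of the 35 had an unadjusted p under 0.05. The shares of all genes under that threshold in these fits were not computed, so these counts cannot be called particular to the members. Leaving out control 2 or knockout 2 left Ifih1 alone (2.86% of members, beside 2.69% and 4.77% of all genes).

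**Figure D1:**
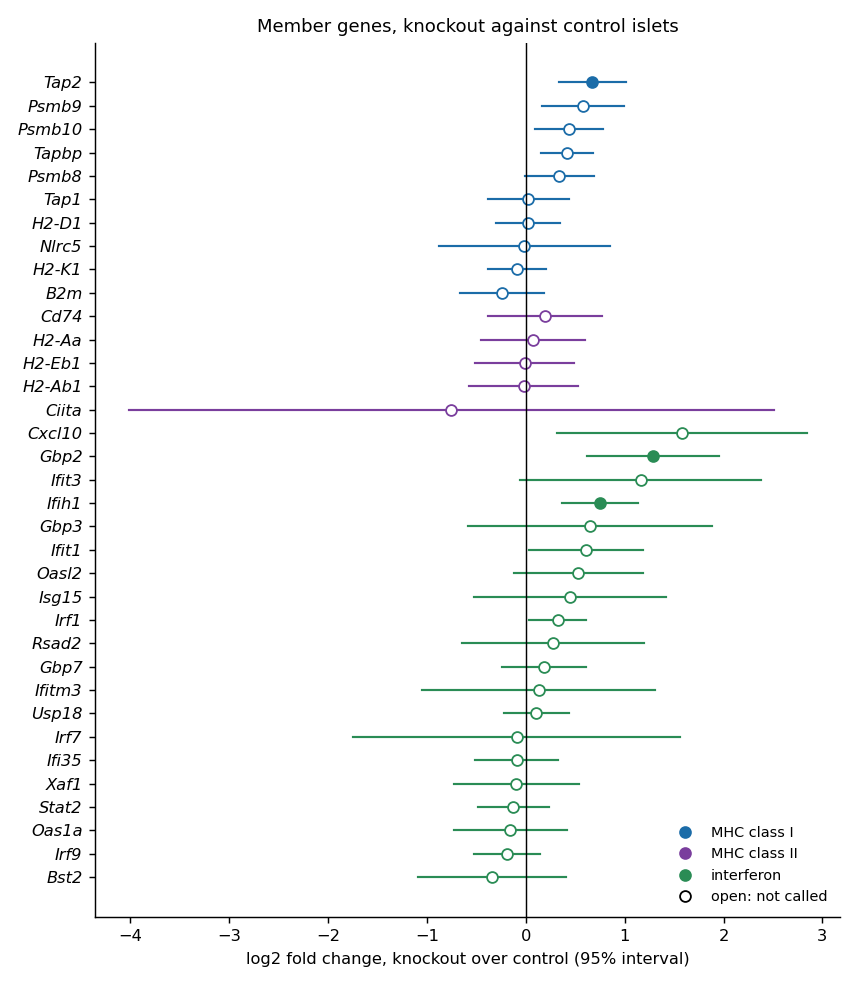
Log2 fold change of each member gene, knockout over control, with its 95% interval from edgeR (horizontal lines), grouped by class; filled points are called and open points are not. Tap2 (0.67), Gbp2 (1.29) and Ifih1 (0.75) are the filled points, and the interval of Ciita, which had few counts, is the widest.

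The class I molecules themselves were among the most abundant members and none of these 3 genes was called by edgeR, DESeq2 or limma-voom, or had an unadjusted p under 0.05. H2-D1 (ENSMUSG00000073411), a classical heavy chain, had the highest level per length, 262 CPM per kilobase of exon in control islets. It measured 554, 739 and 736 CPM in the controls and 690, 749 and 621 CPM in the knockouts, so the groups overlapped. The log2 fold change was 0.02, with a 95% interval of -0.30 to 0.34 (edgeR adjusted p = 0.953). The other heavy chain, H2-K1, stood at 225 CPM per kilobase and had a log2 fold change of -0.09 (interval -0.38 to 0.21). B2m, the light chain that every class I molecule needs, stood at 195 CPM per kilobase and had a log2 fold change of -0.24 (interval -0.67 to 0.18). These 3 intervals leave out a 2-fold difference, while smaller differences were not resolved. Heavy-chain genes are related in sequence, so how reads were split between them is uncertain.

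All 6 genes that cut, pump and load class I peptides had log2 fold changes above 0 (median 0.43), and 1 of them was called. DESeq2 called 3 of the 6 and limma-voom 2, beside 11.3% and 9.30% of all genes tested. Tap2 (ENSMUSG00000024339), which codes for a subunit of the peptide pump, measured 30.8, 33.0 and 31.2 CPM in the controls and 60.9, 53.1 and 38.2 CPM in the knockouts. Every knockout library lay above every control library, and knockout 3 was the closest to them. Tap2 rose 1.59-fold (log2 fold change 0.67, SE 0.158, edgeR adjusted p = 0.0230). The call ended when control 1, control 2, knockout 1 or knockout 2 was left out (adjusted p 0.0922, 0.0649, 0.0974 and 0.0550) and without both shallow libraries (0.235; 0.000143 to 0.235 over 15 alternatives). Tap1, the other subunit of the same pump, measured 16.1, 22.2 and 21.5 CPM in the controls and 18.8, 25.9 and 16.4 CPM in the knockouts. Its groups overlapped, and its log2 fold change was 0.03 (interval -0.38 to 0.44, edgeR adjusted p = 0.956).

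Tapbp, the gene of tapasin, was the most abundant of these 6 genes per length. It measured 185, 216 and 223 CPM in the controls and 283, 296 and 256 CPM in the knockouts, with no overlap. At a log2 fold change of 0.42 (SE 0.120) it missed the threshold (edgeR adjusted p = 0.0552). It was called in 7 of 15 alternatives, among them DESeq2 and limma-voom (adjusted p 0.0153 and 0.0353; 0.0153 to 0.312 in all), and without control 3 (0.0482) or knockout 3 (0.0406).

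Psmb8, Psmb9 and Psmb10 code for the 3 catalytic subunits that turn the standard proteasome into the immunoproteasome. Psmb9 measured 8.41, 12.4 and 11.4 CPM in the controls and 16.9, 18.2 and 13.5 CPM in the knockouts, without overlap (log2 fold change 0.58, edgeR adjusted p = 0.0882). Psmb8 measured 20.8, 19.0 and 21.2 CPM in the controls and 24.6, 31.5 and 21.3 CPM in the knockouts. Its groups were parted only by the small gap between control 3 and knockout 3 (log2 fold change 0.34, adjusted p = 0.242). For Psmb10 the groups overlapped (0.44, adjusted p = 0.121), and the gene was called without knockout 3 (adjusted p = 0.0159), with length and GC offsets (0.00954) and without a filter on low counts (0.0247; 0.00954 to 0.536 over 15 alternatives). Psmb9, which shares its start region with Tap1, was called by DESeq2 (0.0412) and without a filter (0.0337; 0.0337 to 0.341).

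Of their 3 constitutive counterparts, 1 fell and 0 rose, beside 3.35% and 3.72% of all genes. Psmb5, which Psmb8 replaces, measured 86.9, 98.6 and 73.0 CPM in the controls and 60.3, 64.2 and 50.9 CPM in the knockouts, and fell (log2 fold change -0.56, edgeR adjusted p = 0.0275). The call of Psmb5 ended when control 1, control 2, knockout 1 or knockout 3 was left out (adjusted p 0.0907, 0.152, 0.0830 and 0.0610) and without both shallow libraries (0.207; 0.00209 to 0.207 over 15 alternatives). Psmb6 and Psmb7 were not called by edgeR (log2 fold change -0.43 and -0.16, adjusted p 0.0604 and 0.460), though neither overlapped between the groups. Of all genes, 28.0% did not overlap, 14.1% in the lower direction. DESeq2 and limma-voom each called 2 of the 3 constitutive subunits lower, beside 11.3% and 9.30% of all genes called in either direction. Set against each other per length, the level of Psmb8 was 6.37%, 5.14% and 7.74% of that of Psmb5 in control 1, 2 and 3, and 10.8%, 13.0% and 11.1% in knockout 1, 2 and 3. Psmb9 was 4.57% ± 0.753 of Psmb6 in the controls and 9.26% ± 0.331 in the knockouts (SD, n = 3 each). Psmb10 was 161% ± 13.2 of Psmb7 in the controls and 244% ± 40.4 in the knockouts. The percentages depend on the exon lengths used, 1705 bases for Psmb10 and 3421 for Psmb7. Before division by length, Psmb10 averaged 44.3 and Psmb7 55.1 CPM in the controls, and 60.2 and 49.4 CPM in the knockouts. In all 3 pairs the groups did not overlap, and no share over other gene pairs was computed. These ratios were formed from lists chosen with earlier results known and carry no test.

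**Figure D2:**
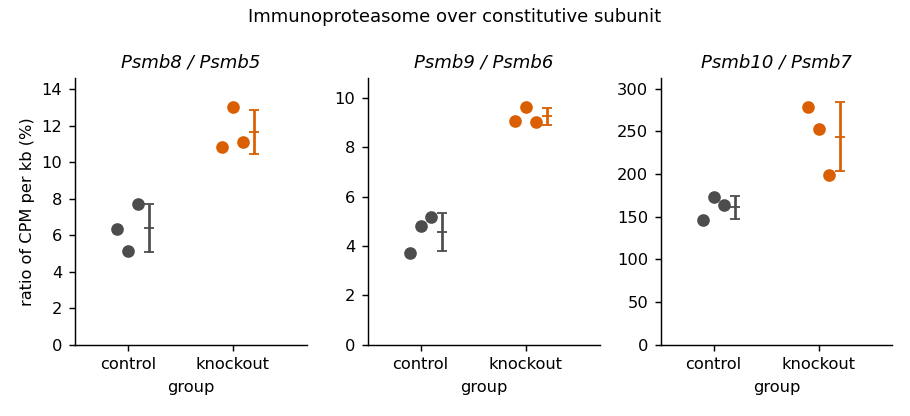
Level per length of each immunoproteasome subunit as a percentage of the constitutive subunit it replaces (vertical axes, each from 0), by group; points are libraries and bars are mean ± SD of 3 libraries. In each panel the 3 knockout points lie above the 3 control points.

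Nlrc5, the factor that drives class I transcription, was low and similar in both groups. It measured 1.92, 1.07 and 1.47 CPM in the controls and 1.55, 1.57 and 1.23 CPM in the knockouts (log2 fold change -0.02, interval -0.88 to 0.85). From a list of 18 other class I genes, 17 were tested, 1 rose and 2 fell, with a median log2 fold change of -0.10. The ER chaperones that fold the heavy chain were the 2 that fell. Calr, calreticulin, fell from 1341 ± 136 to 759 ± 18.2 CPM (SD, n = 3; log2 fold change -0.82, edgeR adjusted p = 0.00370), and stayed called in all alternatives but the one lacking both shallow libraries (0.115; 8.49e-09 to 0.115 over 15 alternatives). Pdia3, a disulfide isomerase of the loading complex, also fell (-0.47, adjusted p = 0.0480). The call of Pdia3 ended whichever library was left out, control 1 to 3 (0.118, 0.171 and 0.0550) or knockout 1 to 3 (0.119, 0.192 and 0.0870). It also ended without both shallow libraries (0.234), with DESeq2 size factors in edgeR (0.0503) and when library sizes left out hormone and acinar genes (0.0502; 0.00186 to 0.234 over 15 alternatives). Erap1, which trims peptides in the ER, rose from 58.6 ± 3.81 to 81.6 ± 13.1 CPM (0.48, adjusted p = 0.0429). The call of Erap1 ended without control 1 to 3 (0.0888, 0.173 and 0.0761) or knockout 2 or 3 (0.0773 and 0.118), without both shallow libraries (0.118) and under upper-quartile factors (0.0536; 0.00674 to 0.173). Calr and Pdia3 also act on other glycoproteins and do not serve class I alone.

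None of the 5 class II members was called by edgeR, DESeq2 or limma-voom, and none had an unadjusted p under 0.05 in edgeR. Cd74, the invariant chain that guards the class II groove, was the most abundant at 28.1 CPM per kilobase in controls. It measured 44.4, 36.7 and 60.6 CPM in the controls and 75.2, 45.9 and 42.8 CPM in the knockouts, so the groups overlapped (log2 fold change 0.20, interval -0.38 to 0.78). The alpha chain H2-Aa measured 16.3, 13.1 and 22.7 CPM in the controls and 25.1, 15.6 and 14.8 CPM in the knockouts (0.07, interval -0.46 to 0.60). The beta chains H2-Ab1 and H2-Eb1 had log2 fold changes of -0.02 and -0.01, with intervals of -0.58 to 0.53 and -0.51 to 0.49. In all 4 genes knockout 1 and control 3 held the 2 highest values, and the order of libraries did not follow the groups. Ciita, the master regulator of class II, measured 0.339, 0 and 0.126 CPM in the controls and 0, 0.175 and 0.0190 CPM in the knockouts. At such counts no difference in Ciita was detectable. Of 16 other class II genes 14 were tested and 0 were called by edgeR, DESeq2 or limma-voom, with a median log2 fold change of 0.12; 1 of them had an unadjusted p under 0.05.

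Markers of leukocytes moved with class II across libraries only in part. The summed level of 14 leukocyte and myeloid markers was 132, 113 and 133 CPM in the controls and 229, 127 and 108 CPM in the knockouts, and 0 of the 14 were called by edgeR (1 had an unadjusted p under 0.05, and DESeq2 called 1). The summed level of the 5 class II members was 90.0, 70.9 and 121 CPM in the controls and 138, 87.8 and 81.3 CPM in the knockouts. Knockout 1 was highest on both sums, and knockout 3 was the lowest of its group on both. Of 7 dendritic cell markers, Xcr1, Cd209a and Siglech were at 0 in every library, and the list's sum lay between 1.19 and 2.66 CPM. The sums of 5 B cell markers lay between 1.75 and 5.65 CPM and those of 9 T and NK cell markers between 0.187 and 1.55 CPM, with Nkg7 at 0 in every library. The part of these cells in the class II values was not tested.

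**Figure D3:**
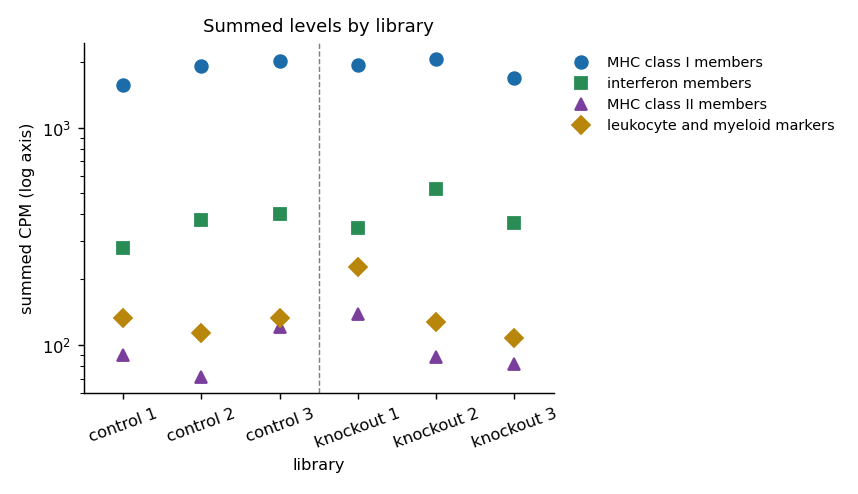
Summed CPM (log axis) of the class I, interferon and class II members and of the leukocyte and myeloid markers in each library, controls to the left of the dashed line. Class II members and leukocyte markers are both highest in knockout 1 (138 and 229 CPM), while the interferon members are highest in knockout 2 (521 CPM).

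Interferon ligands were at or near the floor in both groups. Of 9 interferon genes listed, 7 had 0 counts in all 6 libraries, Ifnb1 had 12 counts in control 3 only and Ifng had 2 counts in control 1 only. Of 9 receptor and kinase genes tested, 0 were called by edgeR, DESeq2 or limma-voom, while 3 had an unadjusted p under 0.05. Among these, the kinase gene Jak2 had a log2 fold change of 0.43 (adjusted p = 0.0845) and Tyk2 of -0.39 (0.119). The 4 member transcription factors were not called by any of the 3 tools (1 had an unadjusted p under 0.05). Of 12 other interferon transcription factors and regulators 0 were called by edgeR, 3 had an unadjusted p under 0.05, and DESeq2 called 1. Stat2 and Irf9, whose proteins take part in the complex that binds the ISRE, had log2 fold changes of -0.13 (interval -0.49 to 0.23) and -0.19 (interval -0.53 to 0.15).

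Irf1, which responds to interferon gamma, was the most abundant factor per length. It measured 41.7, 39.7 and 33.6 CPM in the controls and 44.3, 54.7 and 44.1 CPM in the knockouts, with no overlap (log2 fold change 0.32, edgeR adjusted p = 0.185). Irf7, a factor that amplifies type I interferon, differed more between libraries of 1 group than between groups. It measured 9.26, 28.2 and 48.9 CPM in the controls and 19.9, 34.6 and 27.3 CPM in the knockouts (-0.09, interval -1.74 to 1.56).

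Gbp2 (ENSMUSG00000028270) had the largest fold change of the called members. It belongs to the guanylate-binding proteins, interferon-induced GTPases that attack intracellular microbes. It measured 6.49, 4.33 and 5.82 CPM in the controls and 15.8, 17.4 and 7.27 CPM in the knockouts. All knockout libraries lay above the controls, knockout 3 by little, and Gbp2 rose 2.44-fold (log2 fold change 1.29, SE 0.303, edgeR adjusted p = 0.0264). The call ended without control 1, 2 or 3 (0.0673, 0.125 and 0.0562), without knockout 1 or 2 (0.0927 and 0.0685), without both shallow libraries (0.187) and in limma-voom (0.121; 4.95e-07 to 0.187 over 15 alternatives). The other chromosome 3 members of the family, Gbp3 and Gbp7, were not called. Gbp3 measured 1.35, 6.29 and 6.74 CPM in the controls and 5.11, 10.5 and 7.49 CPM in the knockouts (0.65, adjusted p = 0.547), with control 1 far below the rest. Gbp7 lay between 6.22 and 9.06 CPM in all 6 libraries (0.18, interval -0.24 to 0.60). Its start region holds an ISRE core close to the position of that of Gbp2.

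The guanylate-binding protein genes of chromosome 5 showed the largest log2 fold changes among the called genes of the pathway lists. All 5 of them on the list of other interferon-stimulated genes rose, and so did Gbp11, which was added after the values were seen to complete the cluster. Gbp8 (ENSMUSG00000034438) measured 6.49, 3.39 and 3.11 CPM in the controls and 30.7, 28.6 and 16.4 CPM in the knockouts (6.08-fold, log2 fold change 2.60, SE 0.332, edgeR adjusted p = 0.00235). Gbp4 measured 1.47, 1.39 and 1.26 CPM in the controls and 9.19, 9.95 and 4.28 CPM in the knockouts (5.69-fold, adjusted p = 0.000961). Gbp6 measured 4.57, 6.83 and 6.36 CPM in the controls and 21.02, 30.0 and 12.9 CPM in the knockouts (3.54-fold, adjusted p = 0.00370). In each of these genes the lowest knockout library, knockout 3, still lay well above the highest control. Gbp9, Gbp10 and Gbp11 rose 3.58-fold, 5.74-fold and 7.49-fold (edgeR adjusted p 0.00213, 0.00732 and 0.000418).

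The 6 chromosome 5 genes summed to 17.0, 15.7 and 15.1 CPM in the controls and 80.7, 95.2 and 49.3 CPM in the knockouts. The 5 chromosome 3 genes, with Gbp5 (2.83-fold, not called, edgeR adjusted p = 0.0959) and the nearly silent Gbp2b, summed to 16.2, 18.7 and 21.9 CPM in the controls and 37.5, 39.1 and 24.1 CPM in the knockouts. Gbp8, Gbp9 and Gbp11 were called in all 15 alternatives. Gbp4, Gbp6 and Gbp10 lost their calls only without both shallow libraries (adjusted p 0.0725, 0.107 and 0.0759). Reads can be shared between these related genes, so single values are less certain than the sum. The difference between the clusters was not tested.

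**Figure D4:**
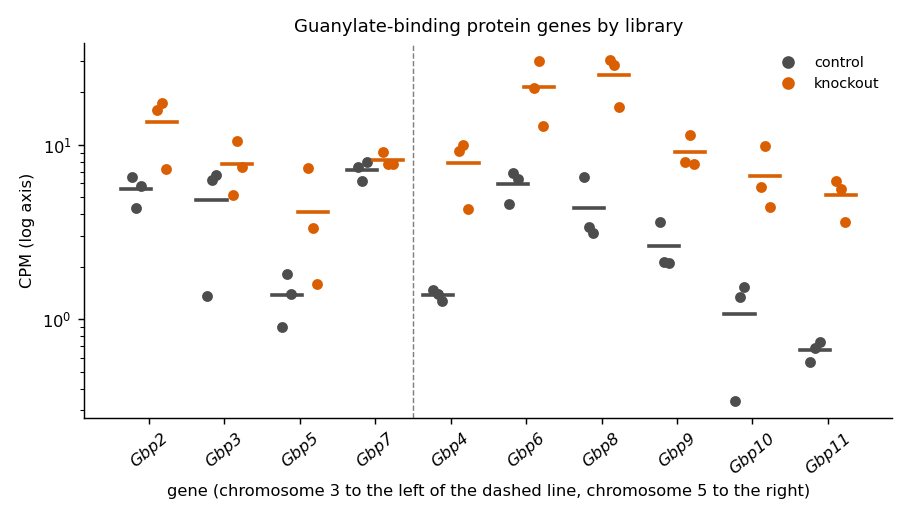
CPM (log axis) of 10 guanylate-binding protein genes in each control (grey) and knockout (orange) library, with the group mean as a line; Gbp2b, at or near 0, is left out. The 6 genes to the right of the dashed line, on chromosome 5, have no overlap between groups, whereas Gbp3, Gbp5 and Gbp7 overlap.

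Ifih1 (ENSMUSG00000026896) codes for MDA5, a sensor of long double-stranded RNA. It measured 12.5, 20.5 and 19.3 CPM in the controls and 28.5, 28.1 and 32.3 CPM in the knockouts, close together within the knockout group and clear of the controls. Ifih1 rose 1.69-fold (log2 fold change 0.75, SE 0.177, edgeR adjusted p = 0.0233). The call ended without control 1 (0.0648), knockout 1 (0.0650) or both shallow libraries (0.137), and under offsets for length and GC (0.0742; 0.000171 to 0.137 over 15 alternatives). Its ISRE core lay 32 bases after the start. Of 15 other nucleic acid sensing genes, 0 were called by edgeR, DESeq2 or limma-voom and 4 had an unadjusted p under 0.05, with a median log2 fold change of 0.05.

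The 10 antiviral effectors were not called by edgeR, DESeq2 or limma-voom (1 had an unadjusted p under 0.05), and several varied widely within a group. Ifit3, which binds foreign RNA together with Ifit1, measured 3.16, 9.70 and 14.0 CPM in the controls and 17.3, 25.9 and 18.7 CPM in the knockouts. The groups did not overlap, but control 1 lay far below the other controls, and the log2 fold change of 1.16 had an edgeR adjusted p = 0.250. Ifit1 measured 9.26, 17.1 and 20.6 CPM in the controls and 24.5, 28.6 and 19.5 CPM in the knockouts, with overlap (0.61, adjusted p = 0.201). Ifit1 was called in 1 of 15 alternatives, without a filter on low counts (edgeR adjusted p 0.00779; 0.00779 to 0.449 in all). Ifit3 and Ifit1 have related copies, so the split of their reads is uncertain.

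Ifitm3, which blocks viral entry, was the most abundant effector per length. It measured 32.5, 46.1 and 30.4 CPM in the controls and 25.0, 67.6 and 26.0 CPM in the knockouts, highest in knockout 2 and lowest in the other knockouts. Isg15, a ubiquitin-like modifier, measured 2.37, 5.75 and 4.87 CPM in the controls and 3.36, 10.1 and 4.29 CPM in the knockouts, again highest in knockout 2 (log2 fold change 0.44, edgeR adjusted p = 0.618). The remaining effectors overlapped between the groups. Their log2 fold changes were 0.53 for Oasl2 and -0.16 for Oas1a, both of the oligoadenylate synthetase family, 0.28 for Rsad2 (viperin), -0.34 for Bst2 (tetherin), -0.10 for Xaf1 and -0.09 for Ifi35. Of these, only Oasl2 was called in any alternative, without a filter on low counts (edgeR adjusted p 0.0182; 0.0182 to 0.688 over 15 alternatives). Usp18, which removes ISG15 and damps interferon signalling, measured 19.9, 26.4 and 28.3 CPM in the controls and 25.9, 28.8 and 26.1 CPM in the knockouts, with overlap (0.11, interval -0.22 to 0.43). Cxcl10, a chemokine that draws T cells, measured 0.226, 1.34 and 1.60 CPM in the controls and 3.88, 4.82 and 1.55 CPM in the knockouts. Knockout 3 fell within the control range, and Cxcl10 was not called (1.58, edgeR adjusted p = 0.131), though it was called by DESeq2 (0.0255) and without a filter on low counts (0.00262; 0.00262 to 0.333 over 15 alternatives).

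**Figure D5:**
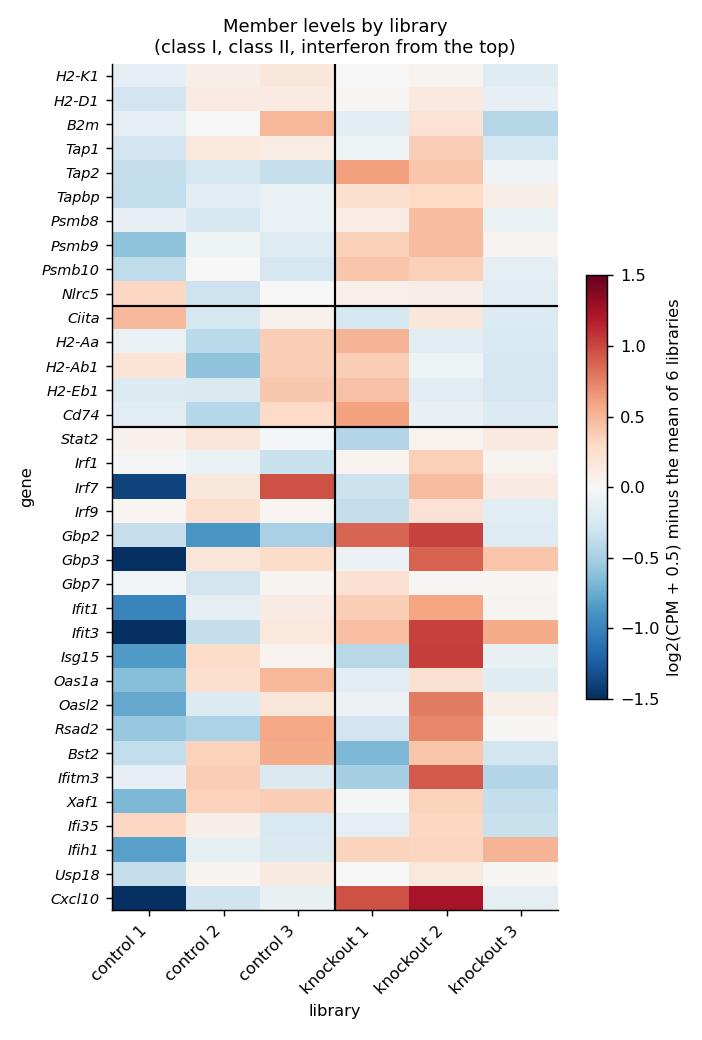
Log2(CPM + 0.5) of each member in each library minus its mean over the 6 libraries (colour, capped at 1.5 in both directions), with class I, class II and interferon members separated by lines. Control 1 is the lowest library for 12 of the 20 interferon members and knockout 2 the highest for 12 of them. The shares over all genes were not computed.

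Many interferon members had their extremes in the same libraries, beside any difference between groups. Control 1 held the lowest value of 12 of the 20 interferon members and knockout 2 the highest value of 12. For class I, control 1 was lowest for 6 of 10 members. Shares over all genes were not computed, so these counts cannot be called particular to the members. The summed level of the interferon members was 278, 377 and 400 CPM in the controls and 346, 521 and 365 CPM in the knockouts, so the groups overlapped. Acinar markers, which come from exocrine tissue carried along with islets, were likewise highest in knockout 2, with a list sum of 45884 CPM beside 13584 to 33860 CPM in the other libraries. Their part in the interferon values was not tested. Other markers differed between the groups. The summed level of 10 islet endocrine markers was 257601 ± 24847 CPM in the controls and 191432 ± 11660 CPM in the knockouts (SD, n = 3 each), with 1 of the 10 called higher and 2 lower by edgeR. DESeq2 called 1 higher and 5 lower, limma-voom 1 and 4, and 9 of the 10 had log2 fold changes below 0. The sum of 6 duct markers was 1997 ± 258 and 1274 ± 257 CPM, with 2 of the 6 called higher by edgeR and by limma-voom. Of the 6, 4 had log2 fold changes above 0 and 2 below (median 0.35), so the lower sum did not reflect most of the list. DESeq2 called 2 higher and 1 lower. The same 3 members were called when library sizes were computed without hormone and acinar genes. The part of endocrine and duct cells in the members' values was not tested.

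Among 70 other interferon-stimulated genes, 69 were tested, 10 rose and 0 fell, with a median log2 fold change of 0.27. DESeq2 called 16 of them higher and 2 lower, limma-voom 9 and 1. Of the 10, 5 were the guanylate-binding protein genes above. Without the 6 Gbp genes of that list, 5 of 63 genes tested rose (7.94%, beside 3.72% of all genes), and the median was 0.23. Parp14, an ADP-ribosyltransferase, measured 14.6, 16.1 and 16.1 CPM in the controls and 23.3, 25.6 and 25.4 CPM in the knockouts (log2 fold change 0.67, edgeR adjusted p = 0.0126). Dtx3l, a ubiquitin ligase, rose by a like amount (0.68, adjusted p = 0.0164). Iigp1, an immunity-related GTPase, measured 0.903, 1.39 and 1.97 CPM in the controls and 6.73, 4.49 and 2.75 CPM in the knockouts (1.63, adjusted p = 0.0254). Znfx1 (0.64, adjusted p = 0.0256) and the secreted glycoprotein gene Lgals3bp (0.59, adjusted p = 0.0433) rose as well. Dtx3l, Iigp1, Znfx1 and Lgals3bp were named after their values were seen.

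All 5 of these calls ended without control 1 (edgeR adjusted p 0.0516, 0.0667, 0.0907, 0.120 and 0.161 for Parp14, Dtx3l, Iigp1, Znfx1 and Lgals3bp) and without control 2 (0.0505, 0.0779, 0.0936, 0.128 and 0.101). Those of Iigp1, Znfx1 and Lgals3bp also ended without knockout 1 (0.1003, 0.0606 and 0.146), that of Lgals3bp without knockout 2 (0.1105) and that of Znfx1 without knockout 3 (0.0605). Offsets for length and GC ended those of Parp14 and Znfx1 (0.0624 and 0.0554), limma-voom that of Iigp1 (0.0640) and upper-quartile factors that of Lgals3bp (0.0562). Over 15 alternatives the highest adjusted p was 0.107, 0.107, 0.202, 0.199 and 0.324, each without both shallow libraries, and the lowest 0.000322, 0.000885, 0.000260, 0.000102 and 0.000776. The list of other interferon-stimulated genes holds 7 immunity-related GTPases, a family related to the guanylate-binding proteins. All 7 had log2 fold changes above 0, from 0.23 to 1.63, and 1 of them, Iigp1, was called. Of all 18558 genes tested, 9245 had log2 fold changes above 0. Of the 69 tested genes of that list, 51 were above 0 and 18 below. Among the 18, Mx1 (-1.34) and Ifitm2 (-0.64) did not overlap between the groups and were not called by edgeR. The summed level of 8 endothelial markers was 239, 266 and 227 CPM in the controls and 274, 337 and 291 CPM in the knockouts, without overlap. All 8 had log2 fold changes above 0 (median 0.31). Of the 8, edgeR and limma-voom each called 1 higher and DESeq2 2. In edgeR this was Cdh5, an endothelial cadherin gene, which rose (0.51, adjusted p = 0.0481). Its call ended without control 1, control 2, knockout 1 or knockout 2 (0.172, 0.159, 0.0786 and 0.167), without both shallow libraries (0.201), under upper-quartile factors (0.0564) and under offsets for length and GC (0.0583; 0.00800 to 0.201 over 15 alternatives). The part of endothelial cells in these values was not tested.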

How the data were processed

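Gene-level read counts from 6 whole-islet RNA libraries were used as deposited. Per the submitters' processing notes, the tools were STAR 2.7.3a and featureCounts, with Trim Galore 0.6.7 and FastQC 0.11.9, and the build was GRCm39. The sources used here do not give the annotation release, the strand setting or how pairs and multi-mappers were counted. Of the nonzero counts, 62.3% to 73.2% per library were even. The column names give the group but not which sample a column holds, so libraries are numbered within their group by column. Of 56980 gene IDs, 52073 had a symbol (GENCODE, GRCm38), so no positions are given for counted genes beyond the chromosome. Totals ran from 14907641 to 225428920 counts.

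Low-count genes were removed with filterByExpr, leaving 18558, and knockout was compared with control in edgeR 4.0.16 (R 4.3.3) with TMM factors and the robust quasi-likelihood test, Benjamini-Hochberg adjusted over all genes tested at 0.05. Intervals are 95%. In total 1312 genes were called. DESeq2 1.42.0, limma 3.58.1 (voom), other scalings and filters, length and GC offsets (mgcv 1.9.3; 97.6% of genes tested had values) and left-out libraries made 15 alternatives. All pairs of libraries differed beyond sampling noise (chi-square per gene averaging at least 38.0), so all 6 were kept. On data simulated for this comparison (17983 genes tested), edgeR recovered 18.4% of genes changed 1.5-fold, 51.9% changed 2-fold and 71.9% changed 4-fold, and called 0.0225% of unchanged genes.

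Members and lists were chosen with earlier results of these data known. Every member is named, with all 6 values for called and non-overlapping members and the highest per length in each role group. From each other pathway list the called genes are named, up to 6 per direction by smallest p. Of the cell type markers called by edgeR, the endothelial gene is named, while the duct and islet endocrine genes are only counted. A gene that the rule also names is not reported here. Promoter sequences are RefSeq's (GRCm38.p6).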

Additional observations from a re-analysis of the deposited data

How the results depend on the processing

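Of all genes, 1312 were called, and 2153 without a filter on low counts, 2094 with DESeq2 and 124 without both shallow libraries. Leaving out 1 library gave 519 to 1309 calls. Of the members, 3 were called (8.57%, beside 7.07% of all genes tested). Without a filter 9 were called (25.7%, beside 7.44% of 28937 genes tested), and with DESeq2 6 (17.1%, beside 11.3%). Without both shallow libraries 0 were called, beside 0.652% of all genes tested. Leaving out 1 library gave 0 to 5, the 5 without knockout 3 (14.3%, beside 5.69%). No member was called lower under any of the 15 alternatives, and no called direction reversed. Upper-quartile scaling called 613 genes higher and 829 lower (42.5% higher, beside 52.7%), with the same 3 members called. No paired analysis was possible because the columns carry no sample of their own and the titles of the groups share only 1 number. Fewer samples and the shallow libraries limit what could be detected. A floor of 3 counts is 0.194 CPM in knockout 1, where Ciita had 0 counts, and 0.0135 CPM in control 3, where it had 28.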
